A study of Mus musculus with 12 samples.

Results

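A set of 10 genes that carry glucose into cells and split it was followed through the first postnatal days of cortical neurons. The genes were Slc2a3, Hk1, Hk2, Pfkl, Pfkm, Pfkp, Aldoc, Eno2, Ldha and Ldhb. They were found by their exact symbols in the array's probe annotation, and a gene with several probe sets of its own was represented by the brightest over the 12 arrays. All 10 were measured, 9 of them above background, and 2 (Hk1 and Ldhb) had 2 probe sets each. The array had probe sets specific to 19937 genes. The values are log2 intensities, so a difference of 1 is a factor of 2.

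The cells were GFP-labelled neurons sorted from C57BL6 mouse cortex, with 3 arrays (A, B and C) of biological replicates for each group. Interneurons were taken at P10 (IN P10) and at P0 (IN P0) from cortices of Nkx2-1Cre;RCE:LoxP mice, and pyramidal cells at P12 (Pyr P12) and at P0 (Pyr P0) from somatosensory cortices of NexCre;RCE:LoxP mice. Nkx2-1Cre acts in progenitors of the medial ganglionic eminence, so that the sorted interneurons are a mixture of classes, and NexCre acts in young excitatory neurons. Every animal carried a Cre and the reporter. Because the later ages differ by 2 days and the dissected regions differ, neither can be told apart from cell type where interneurons are set against pyramidal cells. The labels do not say how many animals made up a replicate, so the p-values measure only the spread between these arrays.

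The 12 arrays had medians of 8.12 to 8.22, and arrays of 1 group correlated at 0.995 to 0.999. A probe set counted as above background on an array when it exceeded the 95th percentile of 1208 probe sets for olfactory and vomeronasal receptors there, which lay at 7.13 to 7.45. The labelled cell types carried their markers: Gad1, which makes GABA, had means of 13.24 (IN P10), 12.69 (IN P0), 8.49 (Pyr P12) and 9.58 (Pyr P0). Of 11 measured pyramidal markers, 10 were lower in IN P10 than Pyr P12, 8 of them at a fold over 2. Markers of the other cell type moved with age as well. Summed linear intensity of the pyramidal list was 8107 to 8638 in IN P10 against 12444 to 14789 in IN P0. Of its 11 measured genes, 8 fell with age in interneurons and 1, Camk2a, rose (2.12). Neurod6, not above background in IN P10, was at least 6.16-fold lower there, and Tbr1 fell by 2.70. Cux2 (-1.24) and Bcl11b (-0.81) fell as well, but both were higher in IN P0 than Pyr P0, by 0.71 and 0.61. Part of the fall in the sum thus comes from genes not particular to pyramidal cells here. The summed linear intensity of 7 pan-interneuron markers was 1491 to 1649 in Pyr P12 against 3293 to 4786 in Pyr P0, and Dlx1 fell by 2.47. Markers of oligodendrocyte lineage cells were detected in the interneuron groups. All 9 oligodendrocyte precursor markers were higher in interneurons at both stages, with Bcas1, not above background in pyramidal cells, at least 6.04-fold higher in IN P10 and at least 1.9-fold higher in IN P0, and their summed linear intensity was 10827 to 16685 in IN P10, 12249 to 15267 in IN P0, 2681 to 2878 in Pyr P12 and 2265 to 2730 in Pyr P0. Of the myelinating oligodendrocyte markers, 9 of 10 rose in IN P10 against IN P0, with sums of 6653 to 8967 against 2962 to 3200. Opalin, counted among the 9, and Ermn were not above background in any group. The part of these cells in the results below was not tested. In sorted bulk samples, fewer cells of a type and less RNA per cell cannot be told apart.

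Neurons burn glucose almost continuously. It enters through facilitative transporters, of which the product of Slc2a3 (GLUT3) is the main neuronal form, and hexokinase traps it as a phosphate. Phosphofructokinase commits it to glycolysis, aldolase splits the product, enolase works near the end of the chain, and lactate dehydrogenase interconverts pyruvate and lactate. Each of these steps has several isozymes from separate genes, and tissues and cell types differ in which they use.

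The promoters of Eno2, Pfkp, Ldha and Ldhb are shown because Eno2 had the largest age change of the members, Pfkp the largest difference in age change between the populations, and Ldha and Ldhb encode the 2 subunits of 1 enzyme. Each window runs from 250 bases before to 50 bases after a RefSeq start (GRCm38.p6), and 9 of the 10 members had at least 1 window, 15 in all, with no entry for Slc2a3. Capitals mark ACGTG and GCGTG on either strand (on the other strand CACGT and CACGC), the letters at the core of sites bound by hypoxia-inducible factors, the classical activators of glycolytic genes. Where CACGTG occurs, matches on the 2 strands overlap.
Eno2 (chr6:124769624-124769923, minus strand): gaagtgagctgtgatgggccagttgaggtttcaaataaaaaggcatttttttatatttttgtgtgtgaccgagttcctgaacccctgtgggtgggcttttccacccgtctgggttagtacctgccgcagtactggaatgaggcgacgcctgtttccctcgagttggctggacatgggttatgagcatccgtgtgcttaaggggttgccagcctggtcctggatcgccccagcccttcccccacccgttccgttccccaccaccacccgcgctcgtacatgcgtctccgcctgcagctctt
Pfkp (chr13:6648722-6649021, minus strand): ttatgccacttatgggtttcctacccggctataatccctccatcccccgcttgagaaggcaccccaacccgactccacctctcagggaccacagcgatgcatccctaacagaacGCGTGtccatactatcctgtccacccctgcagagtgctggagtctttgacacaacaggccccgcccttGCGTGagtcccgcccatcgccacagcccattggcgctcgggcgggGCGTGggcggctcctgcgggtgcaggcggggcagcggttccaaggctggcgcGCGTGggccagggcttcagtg
Ldha (chr7:46845554-46845853, plus strand): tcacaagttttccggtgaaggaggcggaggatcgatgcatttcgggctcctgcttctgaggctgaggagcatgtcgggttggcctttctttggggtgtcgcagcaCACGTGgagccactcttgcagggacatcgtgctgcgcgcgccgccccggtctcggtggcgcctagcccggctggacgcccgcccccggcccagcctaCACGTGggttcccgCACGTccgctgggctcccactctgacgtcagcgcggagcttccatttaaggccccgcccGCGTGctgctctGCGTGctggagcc
Ldhb (chr6:142507908-142508207, minus strand): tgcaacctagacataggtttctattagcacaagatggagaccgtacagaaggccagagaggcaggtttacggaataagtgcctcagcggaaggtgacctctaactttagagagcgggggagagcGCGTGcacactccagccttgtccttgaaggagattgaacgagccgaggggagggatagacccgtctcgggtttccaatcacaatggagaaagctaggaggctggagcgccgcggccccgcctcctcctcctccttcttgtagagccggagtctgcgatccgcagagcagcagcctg

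The Ldha window shown held 5 matches to ACGTG and 2 to GCGTG, the Pfkp window 4 to GCGTG, the Ldhb window 1 to GCGTG and the Eno2 window none. Either motif was found in 12 of the 15 member windows, from 8 members, and in 43.8% of all 32851 windows of this length in the table. ACGTG was in 6 of the 15 and in 19.6% of all, GCGTG in 10 of the 15 and in 32.4% of all. Among the 15, 2 windows of Pfkm overlap and share 1 GCGTG match, which is counted in both. These counts describe letters in a window and say nothing of binding. The gene with the largest change, Eno2, was the one of these 4 with no match.

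Most of the members rose with age in both populations. In IN P10 against IN P0, 8 members rose and 1 fell (adjusted p under 0.05, limma with Benjamini-Hochberg adjustment over 22961 probe sets), where 22.3% of all probe sets rose and 23.1% fell. At a fold over 2 as well, the rule by which a gene is called here, 4 members were called higher and none lower, where 4.19% of probe sets were called higher and 2.85% lower. The median log2 fold change of the 10 was 0.99, beside 0.00 over all probe sets tested. In Pyr P12 against Pyr P0, 7 members rose and 1 fell, against 33.0% and 21.7% of all probe sets, and 3 were called higher and none lower, against 5.68% and 3.48%. Here the members' median was 0.74, beside 0.06 over all probe sets. Eno2 and Slc2a3 were called higher in both, Pfkm and Aldoc in interneurons and Ldhb in pyramidal cells. Several others stood just inside or outside a fold of 2: in interneurons, Ldhb, Pfkp and Ldha had log2 fold changes of 1.00 (just under 1 before rounding), 0.99 and 0.94. Without array B of IN P0, Pfkp and Ldha passed it at 1.04 and 1.02. Ldhb passed it in interneurons without array C of IN P10 (1.07), without array A of IN P0 (1.05) and with the mean of its probe sets (1.05). Its call in pyramidal cells was lost with median centring (0.98) and without array B of Pyr P12 (0.91). The comparisons share groups, so that a high value in IN P10, for example, enters 2 of them.

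No member differed by over 2-fold between the populations. In IN P10 against Pyr P12, 4 members were higher and 1 lower, against 16.1% and 30.4% of all probe sets. The 4 included Hk1 on its brighter probe set, and with its other probe set 3 members were higher and 2 lower. No member was called in either direction, against 2.65% higher and 2.91% lower. The members' median was 0.14, beside -0.07 over all probe sets. In IN P0 against Pyr P0, 1 member was higher and 3 lower, against 11.1% and 11.3%, and again none was called, against 1.90% and 1.74%. The change with age in interneurons minus that in pyramidal cells passed for 4 members, all with the larger value in interneurons, against 11.8% of probe sets in that direction and 20.3% in the other. No member differed by over 1, against 2.24% and 2.63% of probe sets, and Pfkp did so only without array A of Pyr P0, at 1.04.

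**Figure D1:**
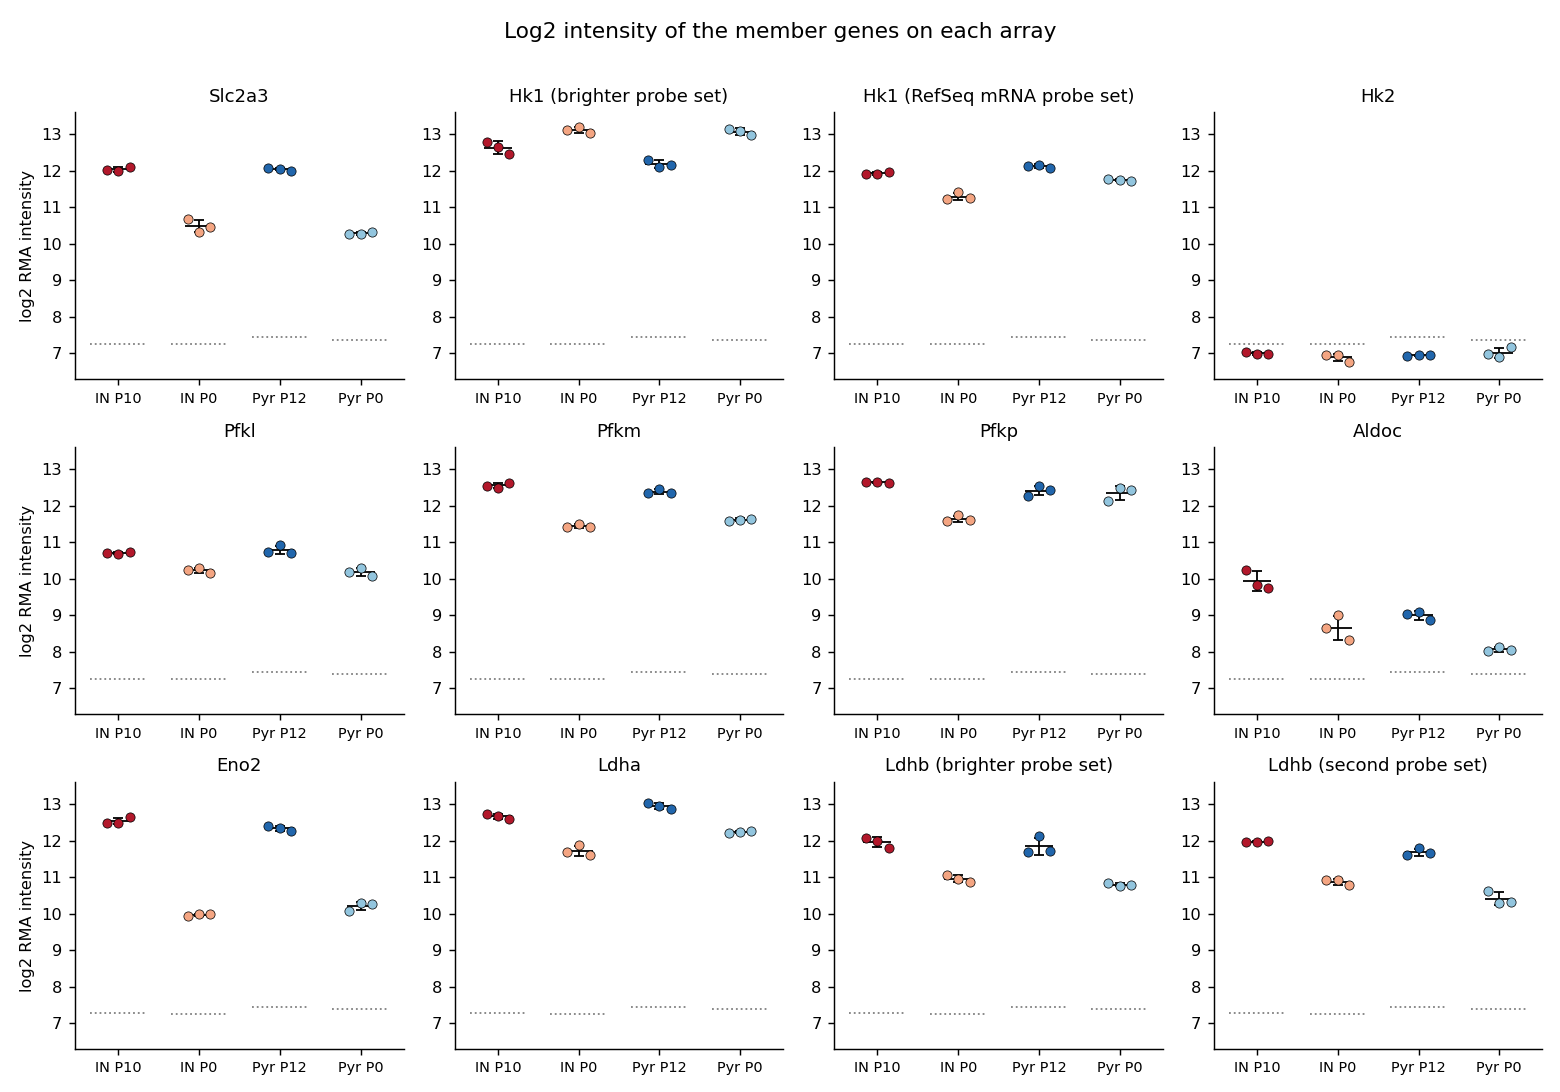
Log2 intensity (vertical axis) of each member on every array, for IN P10, IN P0, Pyr P12 and Pyr P0, with both probe sets of Hk1 and Ldhb. Points are arrays, bars the mean ± SD of 3, and dotted lines the highest background of the group's arrays. Eno2 and Slc2a3 separate the ages in both populations, Pfkp sets IN P0 apart from the other groups, and Hk2 lies below background throughout.

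Slc2a3 (NCBI gene 20527, chromosome 6), the neuronal glucose transporter, was measured at 12.03, 11.99 and 12.12 in IN P10 and at 10.67, 10.34 and 10.47 in IN P0. It was measured at 12.07, 12.05 and 12.01 in Pyr P12 and at 10.28, 10.26 and 10.32 in Pyr P0. All 6 arrays of the later ages were thus above all 6 of P0, while IN P10 and Pyr P12 overlapped. It rose 2.93-fold in interneurons (log2 fold change 1.55 ± 0.07 SE, adjusted p = 1.09e-09) and 3.38-fold in pyramidal cells (1.76 ± 0.07, adjusted p = 1.79e-10). The difference between these changes was -0.20, with a 95% interval of -0.42 to 0.02. IN P10 minus Pyr P12 was 0.00, with an interval of -0.15 to 0.16. At P0 the IN P0 arrays lay higher without overlap, by 0.21, which missed the threshold (adjusted p = 0.0547).

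The other transporters of the family gave a mixed picture. Of 10 measured, 8 were above background on at least 1 array, and 4 rose in IN P10 against IN P0 with none lower, while 4 rose in Pyr P12 against Pyr P0. Slc2a9, which was lower there, was above background on no Pyr P12 array and on 2 of Pyr P0. Of all probe sets, 22.3% rose in interneurons and 33.0% in pyramidal cells, so the pyramidal count is near that share. Among the 10, 2 were called higher in both, Slc2a6 (GLUT6, 2.08 in interneurons and 2.34 in pyramidal cells) and Slc2a13, a proton-coupled myo-inositol transporter (1.94 and 2.07). Slc2a1 (GLUT1), the carrier of the blood-brain barrier and glia, rose by 0.52 and 0.74, and Slc2a8 by 0.35 and 0.36. Slc2a6, Slc2a13 and Slc2a1 were each lower in IN P10 than Pyr P12, with log2 differences of -0.60, -0.65 and -0.53, beside 0.00 for Slc2a3.

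The hexokinase step could not be read with the same confidence. Hk1 (NCBI gene 15275, chromosome 10), the constitutive hexokinase of brain, has 2 probe sets with opposite age changes. The brighter one, which the selection took, read 12.80, 12.66 and 12.45 in IN P10 and 13.12, 13.20 and 13.04 in IN P0. In pyramidal cells it read 12.30, 12.12 and 12.15 at P12 and 13.15, 13.09 and 12.97 at P0. It fell in both populations, with log2 fold changes of -0.48 ± 0.09 in interneurons (adjusted p = 0.000283) and -0.88 ± 0.09 in pyramidal cells (adjusted p = 9.27e-07). The other probe set, the one annotated with the RefSeq mRNAs of Hk1, read 11.92, 11.91 and 11.98 in IN P10 against 11.22, 11.41 and 11.26 in IN P0, and 12.14, 12.17 and 12.07 in Pyr P12 against 11.77, 11.74 and 11.72 in Pyr P0. It rose by 0.64 ± 0.06 in interneurons (adjusted p = 4.97e-07) and by 0.38 ± 0.06 in pyramidal cells (adjusted p = 5.89e-05), without overlap between the ages.

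The annotation of the brighter Hk1 probe set differs from that of the other. It rests on a single GenBank mRNA that 17 probe sets list, 15 of which name the ribosomal protein gene Rpl17 beside Hk1. Over the 12 arrays its correlation with those 15 had a median of 0.97, while that of the RefSeq-annotated set had a median of -0.81, and the 2 Hk1 sets correlated at -0.83. With age, 13 of the 15 fell in interneurons and 13 in pyramidal cells, with median log2 fold changes of -0.70 and -1.05. The genes closest to it in pattern, of 14631 compared, were Rpl6 (r = 0.988), Rab8b (0.985) and Rpl41 (0.983), 2 of them ribosomal protein genes, whereas those closest to the RefSeq-annotated set were Mest (0.990), Anxa5 (0.986) and Septin6 (0.986). With the RefSeq-annotated set in its place, 9 members rose and none fell in interneurons, and 8 rose and none fell in pyramidal cells. Between populations, 3 members were then higher and 2 lower in IN P10 than Pyr P12. At P0, 1 was then higher and 4 lower in IN P0 than Pyr P0.

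The 2 sets also disagreed between populations. The brighter set was higher in IN P10 than Pyr P12 by 0.45 (adjusted p = 0.000733) and the RefSeq-annotated set lower by -0.19 (adjusted p = 0.0151). At P0 the RefSeq-annotated set was lower in IN P0 than Pyr P0 by -0.45 (adjusted p = 4.3e-05), and the brighter set differed by 0.05, with an interval of -0.14 to 0.23. The one point in common was the age change, which was more positive in interneurons by 0.40 on the brighter set (adjusted p = 0.0217) and by 0.26 on the other (adjusted p = 0.0263). The brighter set's difference missed the threshold when any 1 of 4 arrays was left out (A of IN P10, C of IN P0, B of Pyr P12 or A of Pyr P0), at 0.32 to 0.36 with adjusted p of 0.0523 to 0.0543.

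Hk2 (NCBI gene 15277, chromosome 6), the inducible hexokinase of muscle and of many dividing cells, was not above background on any of the 12 arrays. Its group means were 7.00 in IN P10, 6.90 in IN P0, 6.95 in Pyr P12 and 7.02 in Pyr P0, so no fold change is given. Among the other glucose-phosphorylating enzymes, Hkdc1, a hexokinase domain protein, was called higher in Pyr P12 (9.52 ± 0.14, SD) than Pyr P0 (7.50 ± 0.21), by 2.02, and not in IN P10 (7.46 ± 0.07) against IN P0 (7.52 ± 0.11). The difference between these changes was -2.08 (adjusted p = 1.6e-07).

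**Figure D2:**
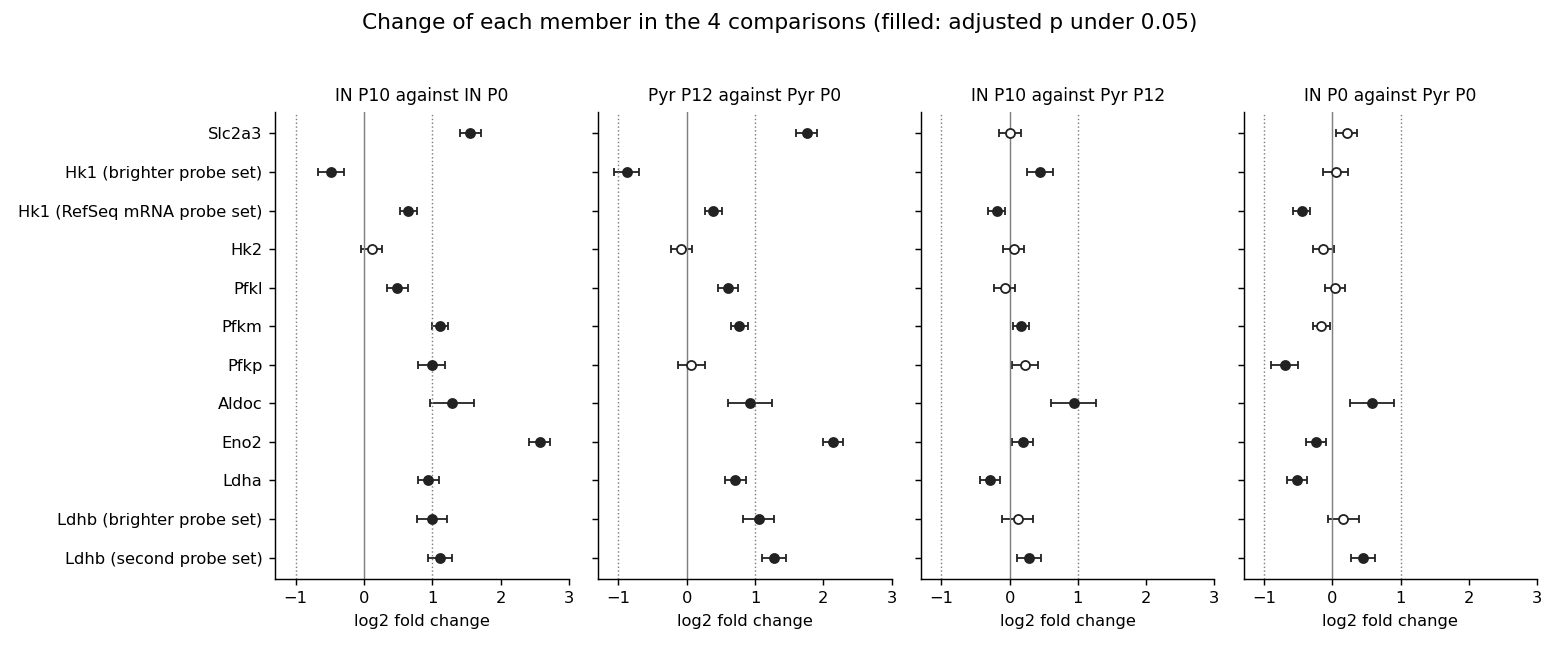
Log2 fold change (horizontal axis) of each member in the 4 comparisons, first group over second, with 95% intervals. Filled points passed an adjusted p of 0.05 and dotted lines mark a fold of 2, which Eno2 and Slc2a3 exceeded with age in both populations and no member exceeded between populations. The 2 probe sets of Hk1 lie on opposite sides of 0 in both age comparisons.

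Among the members, the age change differed most between populations for Pfkp, 1 of the subunit genes of phosphofructokinase. The enzyme is a tetramer of subunits from Pfkm (the muscle form), Pfkp (the platelet form) and Pfkl (the liver form), and brain contains all of them. Pfkp (NCBI gene 56421, chromosome 13) read 12.66, 12.64 and 12.62 in IN P10 and 11.58, 11.74 and 11.62 in IN P0. It read 12.28, 12.53 and 12.43 in Pyr P12 and 12.13, 12.50 and 12.42 in Pyr P0. The 2 ages did not overlap in interneurons and overlapped in pyramidal cells. The log2 fold change was 0.99 ± 0.09 in interneurons (adjusted p = 6.49e-07) and 0.06 in pyramidal cells, with an interval of -0.13 to 0.26. The difference between these changes was 0.93 ± 0.13 (adjusted p = 8.9e-05), the largest among the members. Pfkp was also lower in IN P0 than Pyr P0, by -0.70 ± 0.09 (adjusted p = 4.67e-05), with no overlap. At the later ages it was 0.23 higher in IN P10 than Pyr P12, with an adjusted p of 0.0562, although the arrays did not overlap.

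Pfkm (NCBI gene 18642, chromosome 15) rose in both populations. It read 12.55, 12.50 and 12.63 in IN P10 against 11.43, 11.51 and 11.41 in IN P0, a log2 fold change of 1.11 ± 0.06 (adjusted p = 2.46e-09). It read 12.34, 12.47 and 12.35 in Pyr P12 against 11.57, 11.62 and 11.65 in Pyr P0, a change of 0.77 ± 0.06 (adjusted p = 5.4e-08). The interneuron change was the larger by 0.34 ± 0.08 (adjusted p = 0.00531). The groups ran from IN P10 through Pyr P12 and Pyr P0 down to IN P0 with no overlap between neighbours, but the small gap of 0.17 between IN P10 and Pyr P12 (adjusted p = 0.023) missed the threshold without array C of IN P10 or array A or C of Pyr P12, at 0.14 to 0.15. IN P0 minus Pyr P0 was -0.16, with an interval of -0.29 to -0.04 and an adjusted p of 0.052.

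Pfkl (NCBI gene 18641, chromosome 10) changed least of the subunits that rose in both. It read 10.72, 10.69 and 10.74 in IN P10 against 10.23, 10.31 and 10.15 in IN P0 (0.48 ± 0.07, adjusted p = 5.46e-05). It read 10.74, 10.92 and 10.70 in Pyr P12 against 10.18, 10.29 and 10.09 in Pyr P0 (0.60 ± 0.07, adjusted p = 6.4e-06). Neither the populations nor their changes differed past the threshold, with an interval of -0.23 to 0.08 for IN P10 minus Pyr P12.

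Differences between subunits on the same array put these changes side by side. The levels of separate probe sets are not comparable, so only shifts of a difference between groups are read, as values without a test. Pfkm minus Pfkp averaged -0.08 ± 0.07 (SD, n = 3) in IN P10, -0.20 ± 0.04 in IN P0, -0.02 ± 0.07 in Pyr P12 and -0.74 ± 0.17 in Pyr P0. It thus shifted by 0.71 ± 0.10 (SE) toward Pfkm with age in pyramidal cells and by 0.12 ± 0.05 in interneurons, and at the later ages IN P10 and Pyr P12 overlapped. Pfkp minus Pfkl moved in opposite directions, averaging 1.92 ± 0.03 (SD) in IN P10 against 1.42 ± 0.07 in IN P0, and 1.62 ± 0.10 in Pyr P12 against 2.16 ± 0.20 in Pyr P0. The 2 ages did not overlap in either population.

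Several enzymes that set the activator of phosphofructokinase fell with age. Pfkfb3 makes and breaks the sugar bisphosphate that stimulates the enzyme, and it was called lower in IN P10 than IN P0 by -1.65 and in Pyr P12 than Pyr P0 by -1.83. Its relatives Pfkfb2 (-0.59 and -0.45) and Pfkfb4 (-0.53 and -0.72) fell as well, while Tigar, a phosphatase that degrades the same activator, rose by 0.79 and 0.59. Of 6 genes of this list measured, none differed between IN P10 and Pyr P12 past the threshold, where 16.1% of all probe sets were higher and 30.4% lower. Among the 6, Fbp1 was not above background on any array.

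**Figure D3:**
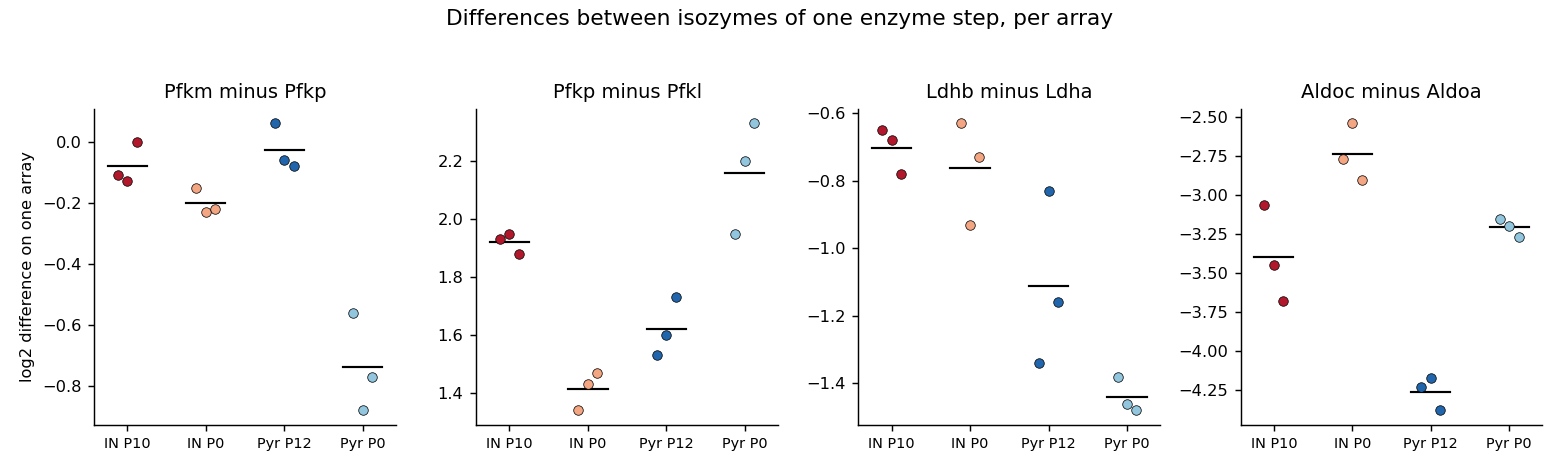
Log2 difference between 2 isozymes of 1 enzyme step on each array (vertical axis, a separate scale for each panel), for IN P10, IN P0, Pyr P12 and Pyr P0. Points are arrays and lines group means. Pfkm minus Pfkp is lowest in Pyr P0, Pfkp minus Pfkl moves in opposite directions with age in interneurons and pyramidal cells, Ldhb minus Ldha is higher in both interneuron groups, and Aldoc minus Aldoa is lower at the later age in both populations.

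Aldoc (NCBI gene 11676, chromosome 11), the brain aldolase, which is strongest in astrocytes and Purkinje cells, had the largest difference between the later groups. It read 10.24, 9.84 and 9.74 in IN P10 and 8.64, 9.0 and 8.32 in IN P0. It read 9.04, 9.10 and 8.86 in Pyr P12 and 8.03, 8.14 and 8.04 in Pyr P0. Every IN P10 array was above every other array, and IN P0 overlapped with Pyr P12. It rose by 1.29 ± 0.15 in interneurons (adjusted p = 6.99e-06) and by 0.93 ± 0.15 in pyramidal cells (adjusted p = 0.00013), and the difference of 0.36 between these had an interval of -0.10 to 0.82. It was higher in IN P10 than Pyr P12 by 0.94 ± 0.15 (adjusted p = 0.000174), and in IN P0 than Pyr P0 by 0.58 ± 0.15 (adjusted p = 0.0119). Without array B of IN P0 the difference at P0 was 0.41 with an adjusted p of 0.0541.

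Markers of glia stood beside these values as follows. Of 15 astrocyte markers, Aqp4, Gja1 and Gjb6 were not above background in any group, and the summed intensity of the list was 8803 to 9070 in IN P10, 5097 to 5494 in IN P0, 15003 to 15219 in Pyr P12 and 5063 to 5329 in Pyr P0. The higher sum in Pyr P12 was carried by Slc1a2, a glutamate transporter gene. Without it, in a sum chosen after seeing the data, IN P10 (8134 to 8458) and Pyr P12 (8273 to 8453) overlapped. Slc1a3, Slc4a4, Sox9 and S100b were higher in IN P10 than Pyr P12, by 0.36, 0.40, 0.25 and 0.61. Slc1a2, Aldh1l1 and Acsbg1 were lower, with log2 differences of -3.41, -0.96 and -0.26. The oligodendrocyte precursor sum was 16685, 10827 and 11930 on arrays A, B and C of IN P10 and 12249, 15267 and 14392 on those of IN P0. The highest array of each group was the same as for Aldoc, and the other 2 were in the opposite order. The astrocyte sum was 8803, 8854 and 9070 on arrays A, B and C of IN P10, the reverse of the order of Aldoc. It was 5266, 5494 and 5097 in IN P0 and 15123, 15219 and 15003 in Pyr P12, both in the order of Aldoc. In Pyr P0 it was 5063, 5203 and 5329, highest on array C, where Aldoc was highest on array B. The part of these cells in the Aldoc values was not tested.

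Aldoa, the aldolase of muscle and most tissues, rose by 1.95 in interneurons and by 1.98 in pyramidal cells. Aldoc minus Aldoa was lower at the later ages, averaging -3.39 ± 0.31 in IN P10 against -2.74 ± 0.18 in IN P0, and -4.26 ± 0.11 in Pyr P12 against -3.21 ± 0.06 in Pyr P0 (SD, n = 3 each). The shift toward Aldoa was -0.66 ± 0.21 (SE) in interneurons and -1.05 ± 0.07 in pyramidal cells, with no overlap between ages. The balance stood higher in IN P10 than Pyr P12 by 0.87 ± 0.19.

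Eno2 (NCBI gene 13807, chromosome 6), which encodes the neuron-specific enolase used as a marker of mature neurons, changed most of the 10. It read 12.48, 12.49 and 12.64 in IN P10 and 9.93, 9.99 and 9.98 in IN P0. It read 12.40, 12.35 and 12.27 in Pyr P12 and 10.07, 10.29 and 10.27 in Pyr P0. No 2 neighbouring groups overlapped, from IN P10 through Pyr P12 and Pyr P0 to IN P0. It rose 5.93-fold in interneurons (2.57 ± 0.07, adjusted p = 1.03e-11) and 4.39-fold in pyramidal cells (2.14 ± 0.07, adjusted p = 1.98e-11). The interneuron change was the larger by 0.43 ± 0.10 (adjusted p = 0.0037), made up of a level 0.24 lower at P0 (log2 difference -0.24, adjusted p = 0.0196) and 0.19 higher at the later age (adjusted p = 0.0359). The single-age differences were fragile. That at P0 missed the threshold without array A of IN P0 or array B or C of Pyr P0, and that at the later age without array C of IN P10 or array B or C of Pyr P12 or under a second quantile normalization, with adjusted p of 0.0622 to 0.153.

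Lactate dehydrogenase is a tetramer of subunits from Ldha, the form prominent in muscle and glycolytic tissues, and Ldhb, the form prominent in heart. Ldha (NCBI gene 16828, chromosome 7) read 12.72, 12.68 and 12.59 in IN P10 and 11.68, 11.88 and 11.60 in IN P0. It read 13.03, 12.95 and 12.88 in Pyr P12 and 12.22, 12.24 and 12.26 in Pyr P0. Within each age every pyramidal array exceeded every interneuron array, and neighbouring groups did not overlap. Ldha rose by 0.94 ± 0.07 in interneurons (adjusted p = 8.75e-08) and by 0.71 ± 0.07 in pyramidal cells (adjusted p = 1.12e-06), and the difference of 0.23 between these changes had an interval of 0.02 to 0.45 and missed the adjusted threshold (adjusted p = 0.0941). It was lower in IN P10 than Pyr P12, by -0.29 ± 0.07 (adjusted p = 0.00412), and lower in IN P0 than Pyr P0, by -0.52 ± 0.07 (adjusted p = 6.95e-05).

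Ldhb (NCBI gene 16832, chromosome 6) rose in both populations. Its brighter probe set read 12.07, 12.00 and 11.81 in IN P10 against 11.05, 10.95 and 10.87 in IN P0 (1.00 ± 0.10, adjusted p = 2.03e-06). It read 11.69, 12.12 and 11.72 in Pyr P12 against 10.84, 10.77 and 10.78 in Pyr P0 (1.05 ± 0.10, adjusted p = 1.08e-06). The change in interneurons minus that in pyramidal cells was -0.05, with an interval of -0.36 to 0.27. Array B of Pyr P12 stood above the other Pyr P12 arrays, and without it the pyramidal change was 0.91, under a fold of 2. IN P10 and Pyr P12 overlapped, with a difference of 0.12 and an interval of -0.11 to 0.34.

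The second Ldhb probe set showed the same age changes and a clearer difference between populations. It read 11.96, 11.96 and 12.00 in IN P10 against 10.91, 10.91 and 10.78 in IN P0 (1.11 ± 0.08), and 11.60, 11.79 and 11.67 in Pyr P12 against 10.62, 10.30 and 10.32 in Pyr P0 (1.27 ± 0.08). On this set Ldhb was higher in IN P10 than Pyr P12 by 0.29 (adjusted p = 0.0108) and in IN P0 than Pyr P0 by 0.45 (adjusted p = 0.00093), where the brighter set gave 0.16 (adjusted p = 0.339).

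The balance of the 2 subunits, Ldhb minus Ldha on the brighter sets, averaged -0.70 ± 0.07 in IN P10, -0.76 ± 0.15 in IN P0, -1.11 ± 0.26 in Pyr P12 and -1.44 ± 0.05 in Pyr P0 (SD, n = 3 each). The interneuron balance was shifted toward Ldhb at both stages, by 0.40 ± 0.16 (SE) in IN P10 against Pyr P12 and by 0.68 ± 0.09 in IN P0 against Pyr P0, without overlap. With age it shifted by 0.05 ± 0.10 in interneurons, with overlapping arrays, and by 0.33 ± 0.15 in pyramidal cells, without overlap. Without array B of Pyr P12 the pyramidal shift was 0.19.

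The steps around these genes were read from lists of the same pathway. Of 13 other glycolytic enzymes measured, 10 of them above background on at least 1 array, 6 rose and none fell in interneurons, and 8 rose in pyramidal cells. The 2 that were lower there, Hk3 and Gapdhs, were not above background on any array. Over all probe sets, 22.3% rose and 23.1% fell in interneurons, and 33.0% rose and 21.7% fell in pyramidal cells. Aldoa, Tpi1 (triosephosphate isomerase), Pgk1 (phosphoglycerate kinase) and Pgam1 (phosphoglycerate mutase) were called higher in both, with log2 fold changes of 1.21 to 1.95 in interneurons and 1.00 to 1.98 in pyramidal cells. Tpi1 rose more in interneurons, 1.72 against 1.28 in pyramidal cells, a difference of 0.45 (adjusted p = 0.00611). The median over the 13 enzymes was 0.16 in interneurons and 0.56 in pyramidal cells. Gapdh, Gpi1 and Eno1 had no probe set of their own in the annotation and were not analysed here.

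Genes that carry lactate and pyruvate or burn them in mitochondria rose more often than they fell. Of all probe sets, 22.3% rose and 23.1% fell in interneurons, and 33.0% rose and 21.7% fell in pyramidal cells. Slc16a7, the high-affinity monocarboxylate transporter of neurons, rose by 1.43 in interneurons and by 0.92 in pyramidal cells, and was called lower in IN P0 (10.04 ± 0.36, SD) than Pyr P0 (11.12 ± 0.07), by -1.08. Its partner Emb, which was not above background in Pyr P0, was at least 2.64-fold higher in Pyr P12 (adjusted p = 2.33e-10). Bsg, the partner of other transporters of the family, rose by 0.69 and 0.65, and Mpc1, a subunit of the mitochondrial pyruvate carrier, by 0.94 and 0.74. Of 11 genes of the pyruvate dehydrogenase complex and its regulators, 7 rose and none fell in interneurons, and 9 rose and 1 fell in pyramidal cells. Pdk4, counted among the 9, was not above background on any array. The complex's Pdha1 rose by 1.62 and 1.05. Of its inhibitory kinases, Pdk2 was called higher in both (1.32 and 1.25) and Pdk1 rose in both (0.40 and 0.96). Pdk3 rose by 1.59 in pyramidal cells, while its interneuron change was 0.20, a difference of -1.39 (adjusted p = 2.97e-06). Pdk3 was higher in IN P0 than Pyr P0 by 1.55, and its IN P10 minus Pyr P12 was 0.17 (adjusted p = 0.161). The malate-aspartate shuttle genes Got1 (2.16 and 1.95) and Mdh1 (1.59 and 1.29) were called higher in both. Gpd1, of the same list of NADH shuttle genes, was called lower in interneurons (-1.04) and had a change of -0.09 in pyramidal cells. Of 10 genes of that list measured, 8 rose and 1 fell in interneurons, and 8 rose and none fell in pyramidal cells. Of 7 measured genes of the pentose phosphate list, 5 rose and 2 fell in interneurons, and 3 rose and 2 fell in pyramidal cells. None of them was called in any comparison, where 1.74% to 5.68% of all probe sets were called in a given direction. Rpe rose by 0.45 and 0.83 and Taldo1 by 0.20 and 0.32, while Rpia fell by -0.76 and -0.31.

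Among glycogen genes, a synthase and a phosphorylase changed with age in interneurons. Gys1, the glycogen synthase of muscle and brain, averaged 10.53 ± 0.04 in IN P10 against 9.21 ± 0.25 in IN P0, and 9.19 ± 0.05 in Pyr P12 against 9.23 ± 0.05 in Pyr P0 (SD). Pygb, the brain glycogen phosphorylase, averaged 12.05 ± 0.04 in IN P10 against 10.42 ± 0.14 in IN P0, and 10.68 ± 0.07 in Pyr P12 against 10.84 ± 0.02 in Pyr P0. Both were thus called higher with age in interneurons (1.32 and 1.63) and not in pyramidal cells (-0.05 and -0.16), with differences of 1.37 (adjusted p = 3.84e-06) and 1.78 (adjusted p = 1.48e-08). The branching enzyme Gbe1 ran the other way, at 0.85 in interneurons and 1.69 in pyramidal cells (difference -0.83, adjusted p = 0.000187). Pygm, another glycogen phosphorylase, rose in both populations (0.95 and 1.03, difference -0.08). Pgm2l1 (1.49 and 1.27) and Epm2a (1.08 and 1.23) were called higher in both. In all, 10 of 12 measured glycogen genes rose and 1 fell in interneurons, and 7 rose and 2 fell in pyramidal cells, with Pygl among the 2 although it was not above background on any array. The shares over all probe sets were 22.3% and 23.1% in interneurons and 33.0% and 21.7% in pyramidal cells.

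Ppargc1a, a coactivator of mitochondrial genes, averaged 12.68 ± 0.08 in IN P10, 10.71 ± 0.23 in IN P0, 10.18 ± 0.14 in Pyr P12 and 8.81 ± 0.07 in Pyr P0 (SD). It was called higher in all 4 comparisons on the brighter of its 2 probe sets, the only one read here. The nuclear receptor partner of Ppargc1a, Esrrg, rose by 1.93 in interneurons and had a change of 0.12 in pyramidal cells (difference 1.81, adjusted p = 2.64e-07). Myc fell in both, by -0.93 and -2.32. The hypoxia-response genes outside glycolysis had no common direction, with 5 of 14 higher and 4 lower in interneurons and 5 higher and 6 lower in pyramidal cells, and medians of -0.01 and 0.00. The shares over all probe sets were 22.3% higher and 23.1% lower in interneurons, and 33.0% and 21.7% in pyramidal cells. Bnip3 was called higher in both (2.02 and 1.92, on the brighter of 2 probe sets). Ndrg1 and Kdm3a fell in both, and Egln3 and Ddit4 rose in interneurons and fell in pyramidal cells.

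**Figure D4:**
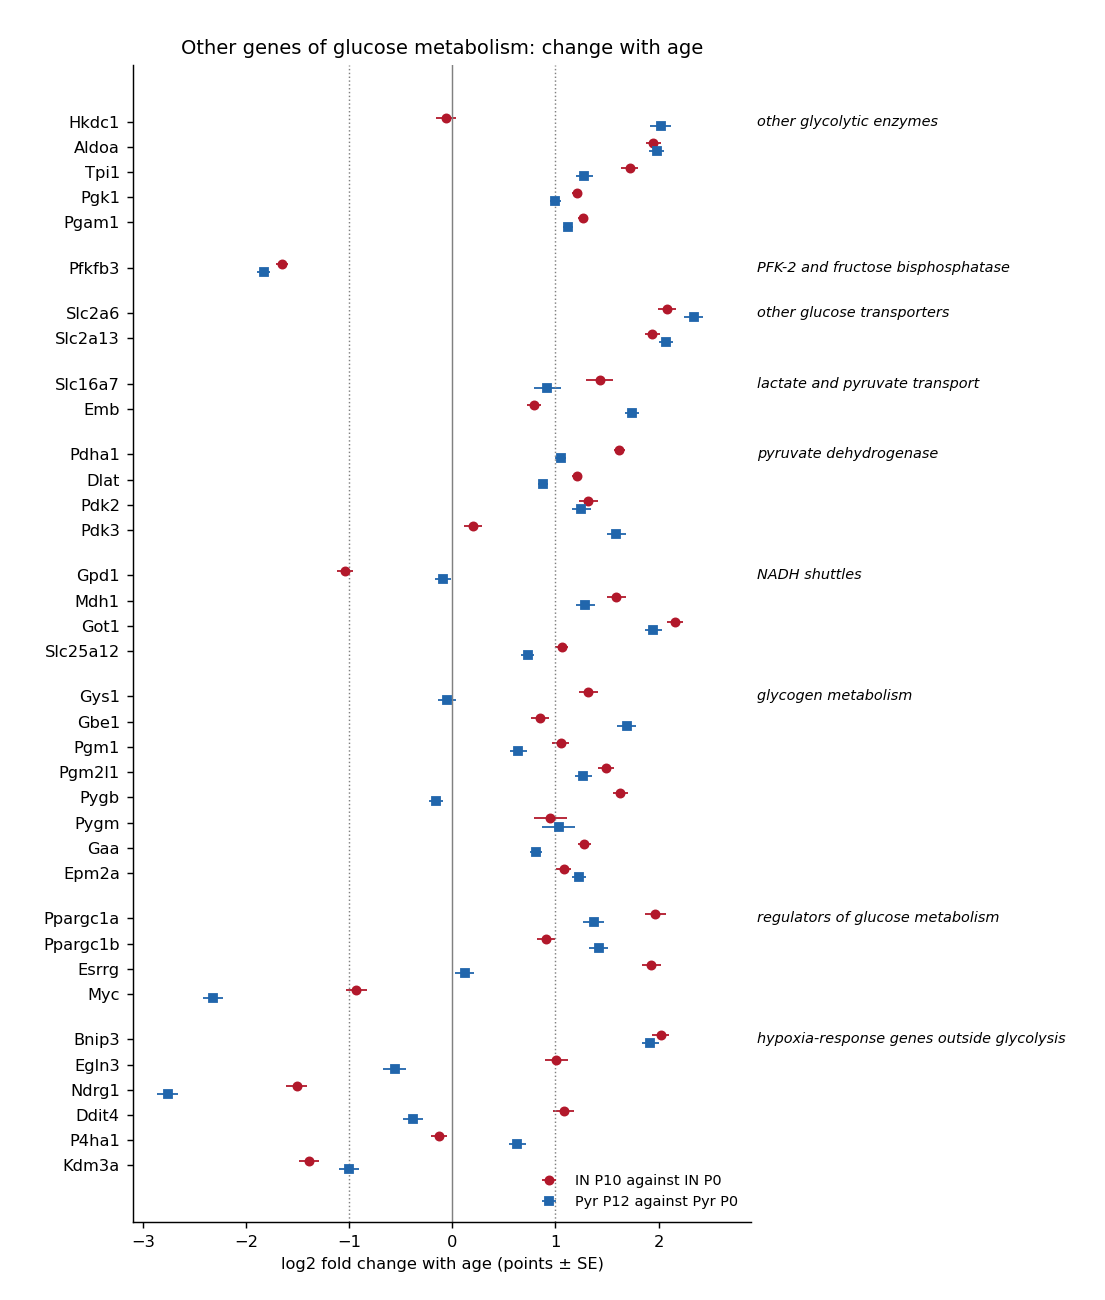
Log2 fold change with age (horizontal axis, ± SE) of the other genes of glucose metabolism called in at least 1 comparison, grouped by list, in interneurons (circles) and pyramidal cells (squares). Most points of the upper lists lie together to the right of 0. Hkdc1, Pdk3, Gys1, Pygb, Esrrg, Egln3 and Ddit4 are set apart by population.

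Over the 12 arrays, the genes nearest to each member in pattern were picked by Pearson's r, with 1 probe set per gene among 14631 genes above background. The points share 4 groups, so r mainly follows the group means. Nearest to Eno2 were Gabbr2, Vsnl1 and Ndrg4 (r = 0.998 each), nearest to Slc2a3 were AI593442 (0.998), Extl2 (0.996) and Cpne6 (0.996), and nearest to Pfkm were Ogdh (0.996), Fn3k (0.996) and Pakap (0.994). For Ldha they were Pcp4 (0.997), Ndrg3 (0.993) and Lrp1b (0.990), for Ldhb Hdhd2 and Lyrm9 (0.988 each) and Sec23b (0.985), and for Aldoc Sat2 (0.986), Atp5d (0.984) and Pea15a (0.982). Those of Pfkl were Ckb (0.986), Dnajb14 (0.983) and Ankrd13c (0.982), and those of Pfkp Cntn5 (0.976), Fam189a2 (0.974) and Rasa4 (0.968).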

How the data were processed

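Total RNA of sorted cells was amplified, biotin-labelled and hybridized to Affymetrix mouse gene arrays. The authors normalized the intensities with RMA, which corrects background, quantile-normalizes the arrays and summarizes probes, and deposited log2 values of 28192 probe sets on 12 arrays. Quantile normalization fixes the overall distribution, so changes are relative to the other genes. Each deposited column was assigned to its sample by accession, and 0 columns were left out. The authors' version of RMA is not given in the sources used here.

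Probe sets were named through GEO's platform table: 21640 carried 1 symbol, 1321 several and 5231 none. Those with a symbol (22961) were fitted with limma 3.58.1 in R 4.3.3, with 4 group means in 1 model (8 residual degrees of freedom), contrasts, eBayes and Benjamini-Hochberg adjustment. A gene passed at an adjusted p under 0.05 and was called at a fold change over 2 as well. The smallest 2-sided exact permutation p for 3 arrays against 3 is 0.1, so single-gene permutation tests were not used. A fold against a group not above background was given as a lower bound, with the dim group set to the lowest signal above background. Precision is limited by 3 arrays a group.

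All members are named, and of the pathway lists (245 entries in 23 lists with the marker lists, 22 without a probe set of their own) the genes called in any comparison or, where fewer than 4 were called, those with the largest changes up to 4, with the 3 genes nearest to each member in pattern. Single marker genes were chosen after their values were seen. The members and lists were chosen with earlier results of these data known. Planned balances with Eno1 were not run, since it has no probe set of its own here. Alternatives were SAM (written for this purpose, all label permutations), limma on 2 groups, limma-trend, the replicate letter as a block, filters, scalings, thresholds, probe set choices and leaving out each array. The fits were tested on simulated data. Member gene IDs and promoters were matched to RefSeq, GRCm38.p6. Python 3.11.15 and matplotlib 3.10.9 made the figures.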

Additional observations from a re-analysis of the deposited data

Results flagged for a closer look

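The change with age in interneurons minus that in pyramidal cells passed an adjusted p of 0.05 (limma) for 4 of the 10 members, where 11.8% of all probe sets passed higher and 20.3% lower. It passed for 25 of the 47 other genes named here, most of which were named because they were called in some comparison, this one included, so that this count is not read further. Among the members it was 0.40 for Hk1 (brighter probe set), 0.34 for Pfkm, 0.93 for Pfkp and 0.43 for Eno2. The larger rise of Pfkp in interneurons went with a lower level in IN P0 than in Pyr P0, and its levels in IN P10 and Pyr P12 differed by 0.23.

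Among glycolytic, transport and mitochondrial genes, the difference was 0.45 for Tpi1, 0.51 for Slc16a7, 0.57 for Pdha1, 0.34 for Dlat and 0.33 for Slc25a12. It was -2.08 for Hkdc1, -0.95 for Emb (not above background in Pyr P0), -1.39 for Pdk3 and -0.95 for Gpd1. In the pentose phosphate list it was 0.55 for Pgd, -0.45 for Rpia and -0.38 for Rpe. Among glycogen genes it was 1.37 for Gys1, 0.41 for Pgm1, 1.78 for Pygb, 0.47 for Gaa and -0.83 for Gbe1. Among regulators it was 0.60 for Ppargc1a, -0.51 for Ppargc1b, 1.81 for Esrrg and 1.40 for Myc, and among hypoxia-response genes 1.56 for Egln3, 1.25 for Ndrg1, 1.46 for Ddit4 and -0.76 for P4ha1. The ages compared span 10 days in interneurons and 12 in pyramidal cells, which cannot be told apart from cell type here.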

How the results depend on the processing

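Of 50 log2 fold changes (10 members in 5 contrasts), 30 passed the test, and 23 of these passed in the same direction under each alternative, arrays left out included, setting aside the probe set choices added after seeing the data. With a fold over 1.5, members called higher were 7 in IN P10 against IN P0, 7 in Pyr P12 against Pyr P0, 1 in IN P10 against Pyr P12 and 1 in the age by population difference, and 1 each was called lower in Pyr P12 against Pyr P0 and in IN P0 against Pyr P0. With no fold threshold, the counts higher and lower were 8 and 1, 7 and 1, 4 and 1, and 1 and 3 in the 4 comparisons in the order of the report, and 4 and 0 in the age by population difference. A second quantile normalization called 1 member, Aldoc, higher in IN P10 than Pyr P12 (1.03). Leaving out 1 array gave 0 to 1 there (Aldoc at 1.04 without array C of IN P10) and 0 to 1 for the age by population difference.

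The direction turned for Hk1 with its RefSeq-annotated probe set, chosen after seeing the data, at 0.64, 0.38, -0.19 and -0.45 in the 4 comparisons. With the mean of both Hk1 sets it was 0.08 in IN P10 against IN P0 and -0.20 in IN P0 against Pyr P0. Pfkp in Pyr P12 against Pyr P0, not past the threshold, was -0.01 with median centring and -0.05 to 0.14 with 1 array left out, lowest without array A of Pyr P0. The age by population difference of Ldhb, not past the threshold either, was -0.13 to 0.09 with 1 array left out, above 0 without array C of IN P10 (0.02) or array B of Pyr P12 (0.09). The causes were not tested. Under the other settings Pfkp in IN P10 against Pyr P12 passed with SAM, limma on the 2 groups, limma-trend, median centring, the dim filter and 1 probe set per gene (adjusted p 0.00474 to 0.0499).

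With the replicate letter as a block, the counts of called members did not change, and the adjusted p of Pfkp in IN P10 against Pyr P12 became 0.0225. Same-lettered arrays of the groups compared correlated at -0.18 to 0.19 in their deviations from the group means, so the letters do not pair the samples. Values near the background of 7.13 to 7.45 hold only a bound, which applies to Hk2 in all groups. SAM and limma on 2 groups were not run for the age by population difference, which needs all 4 groups.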
